A study of Mus musculus with 9 samples.

Results

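FXYD proteins and the beta subunits of the sodium pump were followed here as 8 mouse genes, Fxyd1, Fxyd2, Fxyd3, Fxyd5, Fxyd6, Fxyd7, Atp1b1 and Atp1b3, out of the 49548 genes listed in each of 2 expression tables. They were picked by name, with their values in all 9 libraries already known, so the values below, and the counts of genes past a threshold, describe them and are no independent test; no P is given for any of the 8. The libraries came from synovial fibroblasts (SFs), the mesenchymal cells that line and support the joint, grown from ankle joints of 8-week-old mice on a mixed CBA and C57BL/6J background. There were 3 wild-type (WT) cultures without treatment, 3 cultures from mice carrying a human TNF transgene (hTNFtg) without treatment, and 3 hTNFtg cultures given infliximab, an antibody that neutralizes human TNF, at 1 µg/mL for 48 hours. The hTNFtg mouse develops arthritis driven by the transgene, and its SFs carry that transgene in both hTNFtg groups. Cells were freed with collagenase, CD45+ cells were removed at passage 1, and the 3 cultures of a group are called biological replicates in the study's methods, which also mention a vehicle where the labels give no treatment.

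The sodium pump (Na,K-ATPase) exports sodium and imports potassium across the plasma membrane at the cost of ATP. Its alpha subunit carries the ions and splits ATP, its beta subunit is needed for folding and delivery of the pump to the cell surface, and a small single-span FXYD protein can join the pair and tune the pump's affinity and rate in a tissue-specific way. Beta subunits also take part in cell adhesion, and FXYD5, known as dysadherin, is best known for weakening cell to cell contacts.

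Each library was read at transcript 3′ ends (QuantSeq), so that a read stands for a transcript end and levels of different genes can be set side by side without division by length. Values are normalized counts per library as deposited. The spacing of the values put the depth at about 613348 reads for hTNFtg replicate 1 and 3829160 to 9015519 reads for the other 8 libraries, which were 6.24 to 14.7 times as deep. A count of 3 reads, taken as the limit that a 0 allows, corresponded to a normalized count of 18.7 in hTNFtg replicate 1 and to between 1.6 and 3.31 elsewhere; such limits cover counting error only. All 10 fibroblast markers were present, with summed counts of 42882 to 53209 in WT, 38232 to 46082 in untreated hTNFtg and 36240 to 42050 in infliximab-treated SFs; by the rule given below, 1 of the 10 (Pdpn) was higher and 1 (Lum) lower in hTNFtg than WT. The 7 macrophage markers summed to 166 to 519, 2666 to 5884 and 1646 to 3211 in the same order, and 5 of the 7 passed the rule given below as higher in hTNFtg than WT. The 6 chondrocyte markers summed to 6216 to 9349, 548 to 1212 and 906 to 2517, and 4 of the 6 passed as lower. The 5 hepatocyte markers in the tables summed to 509 in infliximab replicate 3 against 9 to 34 in the other libraries; without that replicate, treated SFs differed from WT by -2.87 for Fxyd1, 1.23 for Fxyd5 and -2.06 for Fxyd6 on the log2 scale used below. In such bulk cultures, fewer cells of a type and less RNA per cell cannot be told apart.

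Of the 8 genes, 5 differed between hTNFtg and WT SFs by the study's rule, which asks for an unadjusted P under 0.05 together with a change of 1 or more, up or down, on the log2 scale. Fxyd2 and Fxyd5 were higher in hTNFtg SFs, and Fxyd1, Fxyd6 and Atp1b1 were lower. Among all 28522 genes tested, 6.39% passed the same rule, 3.35% as higher and 3.04% as lower. The 3 libraries of each group did not overlap for the same 5 genes, where 11.4% of all genes did not overlap. With P values adjusted over all genes, 0.48% of genes and 3 of the 8, Fxyd1, Fxyd2 and Fxyd5, passed 0.05; leaving out 1 library at a time left 0 or 1 of them, and took the count over all genes from 137 to between 1 and 44. The median log2 fold-change was -0.89 for the 8 genes and 0.00 for all genes, but the former rests in part on Fxyd7, which was near 0, and was -0.34 with a pseudocount of 5, -0.52 with edgeR and -0.21 without hTNFtg replicate 1. These counts describe genes whose values were seen first, and nothing further is read from them.

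**Figure D1:**
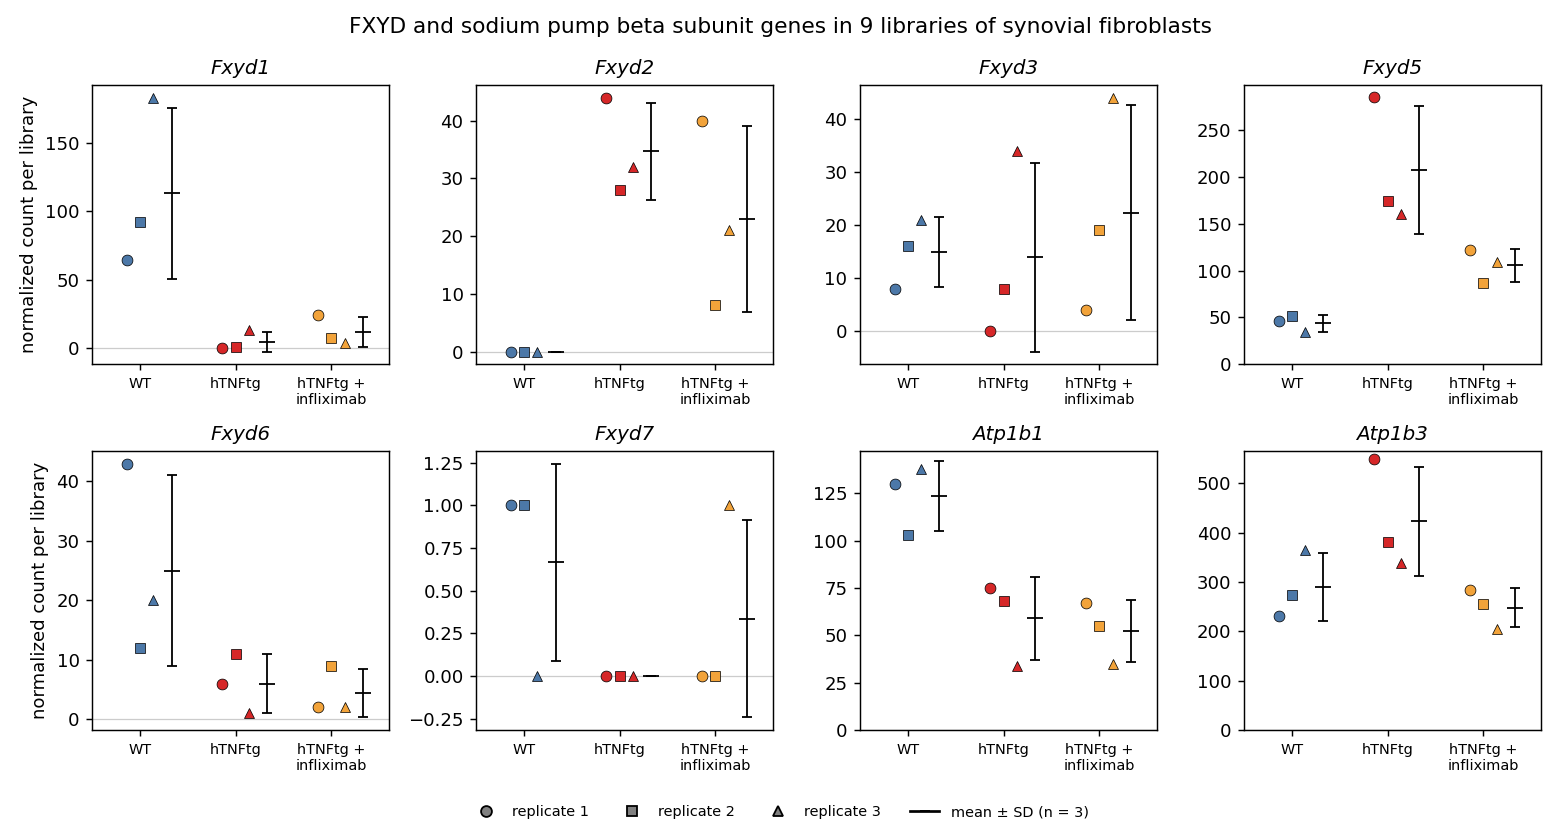
Normalized counts (y axis, linear, separate scale for each gene) of the 8 genes in the 3 WT, 3 untreated hTNFtg and 3 infliximab-treated hTNFtg libraries (x axis); symbols mark the replicate and the bar beside them is mean ± SD. The WT and hTNFtg libraries do not overlap for Fxyd1, Fxyd2, Fxyd5, Fxyd6 and Atp1b1, and Fxyd7 never exceeds 1.

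Fxyd1 encodes phospholemman, the FXYD protein of heart and skeletal muscle, where its phosphorylation releases the pump from inhibition. In WT SFs it stood at 64, 92 and 183 normalized counts in replicates 1 to 3, in hTNFtg SFs at 0, 1 and 13, and after infliximab at 24, 7 and 4. Every WT library was above every hTNFtg library, treated or not. The means were 113 ± 62.2, 4.67 ± 7.23 and 11.7 ± 10.8 (SD, n = 3 each). On the log2(normalized count + 1) scale, used for all differences below, hTNFtg SFs differed from WT by -5.09 (SE 0.91) and infliximab-treated SFs differed from WT by -3.37 (SE 0.59), which ranged from -4.03 without infliximab replicate 1 to -2.87 without infliximab replicate 3. The difference between treated and untreated hTNFtg SFs was 1.72 (SE 1.11), its libraries overlapped and it did not pass the rule. It passed without hTNFtg replicate 3, where it was 2.82, and with array quality weights, where it was 2.20, and was smaller without hTNFtg replicate 1 (0.92), without infliximab replicate 1 (1.06), with a pseudocount of 5 (0.85) and with edgeR (0.90). The 0 in hTNFtg replicate 1 lies within a limit of 18.7, and without that library the difference between hTNFtg and WT was -4.29. Its size also depended on the added 1, at -3.73 with a pseudocount of 5 and -5.57 with a pseudocount of 0.5. This difference was -4.14 with edgeR and -6.20 without hTNFtg replicate 3, and it passed the rule in each case.

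Fxyd5 encodes dysadherin, which also raises the pump's maximal rate when it joins the complex. Its normalized counts were 46, 52 and 34 in WT, 286, 175 and 161 in untreated hTNFtg and 122, 87 and 109 in infliximab-treated SFs. The 3 groups formed 3 separate ranges, with WT lowest, infliximab between and untreated hTNFtg highest. Mean levels were 44.0 ± 9.17, 207 ± 68.5 and 106 ± 17.7 (SD, n = 3 each). The mean in hTNFtg SFs was 4.71 times that in WT, a log2 difference of 2.18 (SE 0.35), and the mean after infliximab was 2.41 times that in WT, a log2 difference of 1.26 (SE 0.25). Against untreated hTNFtg SFs, the treated mean was 0.511 times as high, a log2 difference of -0.93 (SE 0.32) that fell short of the rule's fold. That difference passed the rule without hTNFtg replicate 2 (-1.02), without hTNFtg replicate 3 (-1.08) and without infliximab replicate 1 (-1.03), and was -0.67 without hTNFtg replicate 1.

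Fxyd2 encodes the pump's gamma subunit, typical of the kidney tubule. It was at 0 in all 3 WT libraries, at 44, 28 and 32 in untreated hTNFtg and at 40, 8 and 21 after infliximab. WT libraries thus lay apart from all 6 hTNFtg libraries, while treated and untreated libraries overlapped. Mean levels in the hTNFtg groups were 34.7 ± 8.33 and 23.0 ± 16.1 (SD, n = 3 each). Set against a limit of 3 reads in each WT library, Fxyd2 was at least 13.7-fold higher in untreated hTNFtg SFs and at least 9.11-fold higher in treated hTNFtg SFs, or at least 5.74-fold without infliximab replicate 1. The counts rest on about 7, 33 and 60 reads in the 3 untreated hTNFtg libraries. Treated SFs differed from untreated by -0.80 (SE 0.59) on the log2 scale, which did not pass the rule and was -1.32 without infliximab replicate 1 and -0.22 without infliximab replicate 2. Of the 6 kidney tubule markers, Umod was at 0 in every library and the 6 summed to 17 to 35 in WT, 6 to 35 in untreated hTNFtg and 13 to 23 in treated SFs.

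Fxyd6, a regulator known mainly from brain and inner ear, stood at 43, 12 and 20 in WT, at 6, 11 and 1 in untreated hTNFtg and at 2, 9 and 2 after infliximab. Each WT library was above each hTNFtg library, but by 1 normalized count at the nearest pair. The 6 in hTNFtg replicate 1 rests on about 1 read, and the limit of 18.7 in that library lies above WT replicate 2. Its place under that WT library is therefore uncertain. Mean levels were 25 ± 16.1, 6 ± 5 and 4.33 ± 4.04 (SD, n = 3 each). The log2 difference was -2.05 (SE 0.85) for hTNFtg against WT and -2.35 (SE 0.67) for infliximab-treated SFs against WT. The first no longer passed the rule without WT replicate 1 (-1.58), WT replicate 3 (-2.12), hTNFtg replicate 1 (-2.22) or hTNFtg replicate 3 (-1.32), whereas the second passed with any 1 library left out. Treated and untreated hTNFtg SFs differed by -0.30 (SE 0.99), a value that was 0.26 without hTNFtg replicate 2 and -1.03 without hTNFtg replicate 3.

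The remaining FXYD genes did not separate the groups. Fxyd3, a regulator known from secretory epithelia and many carcinomas, was at 8, 16 and 21 in WT, at 0, 8 and 34 in untreated hTNFtg and at 4, 19 and 44 after infliximab, so that all groups overlapped. Its log2 difference between hTNFtg and WT SFs was -1.14 (SE 1.14), and it was 0.24 without hTNFtg replicate 1 and -2.32 without hTNFtg replicate 3. Fxyd7, a regulator of neurons, was at 1, 1 and 0 in WT, at 0 in all untreated hTNFtg and at 0, 0 and 1 in treated SFs. It was at or under the 3-read limit in all 9 libraries, and no fold is given. Fxyd4, the channel-inducing factor of the kidney collecting duct, was read from the wider list below and had a single count of 1, in infliximab replicate 2.

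The make-up of the FXYD transcripts differed between WT and hTNFtg SFs, with Fxyd1 leading in one and Fxyd5 in the other. The 6 FXYD genes together reached 162, 173 and 258 normalized counts in WT, 336, 223 and 241 in untreated hTNFtg and 192, 130 and 181 after infliximab. Fxyd1 made up 54.5% ± 15.8 of that sum in WT, 1.95% ± 2.99 in hTNFtg and 6.70% ± 5.27 in treated SFs (SD, n = 3 each). Fxyd5 made up 23.9% ± 9.30, 76.8% ± 9.28 and 63.6% ± 3.35, and Fxyd2 made up 0%, 13.0% ± 0.375 and 12.9% ± 7.42. Thus Fxyd1 ranked first of the 6 in WT SFs and Fxyd5 ranked first in both hTNFtg groups, in each case without overlap with the next FXYD gene.

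**Figure D2:**
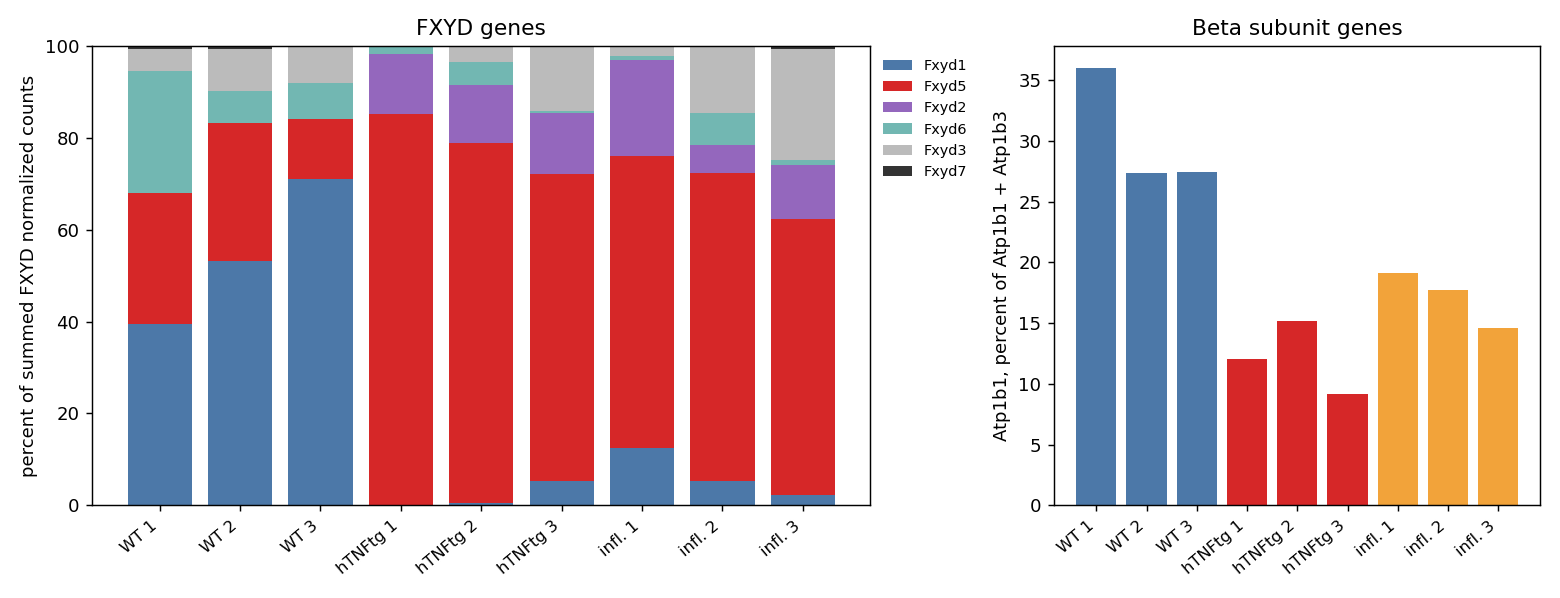
Left, the share of each FXYD gene in the summed FXYD normalized counts (percent, y axis) in each of the 9 libraries (x axis). Right, Atp1b1 as a percent of Atp1b1 plus Atp1b3 in the same libraries; Fxyd5 makes up 60.2% or more in all 6 hTNFtg libraries, and Atp1b1 makes up 27.4% or more in WT and 19.1% or less in the others.

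Atp1b3 encodes the beta-3 subunit, which also lies at the surface of leukocytes. It was the most abundant of the 8 genes in all 3 groups, at 231, 273 and 365 in WT, at 548, 381 and 338 in untreated hTNFtg and at 283, 255 and 205 after infliximab. The untreated hTNFtg libraries overlapped with WT, since hTNFtg replicate 3 lay under WT replicate 3, and stood above all 3 treated libraries. Mean levels were 290 ± 68.5, 422 ± 111 and 248 ± 39.5 (SD, n = 3 each). The log2 differences were 0.54 (SE 0.31) for hTNFtg against WT, -0.21 (SE 0.22) for treated SFs against WT and -0.75 (SE 0.29) for treated against untreated hTNFtg, and none passed the rule.

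Atp1b1 encodes the beta-1 subunit, the most widespread beta subunit of the pump. Its counts were 130, 103 and 138 in WT, 75, 68 and 34 in untreated hTNFtg and 67, 55 and 35 after infliximab. All WT libraries were above all hTNFtg libraries, and treated and untreated libraries overlapped. Mean levels were 124 ± 18.3, 59.0 ± 21.9 and 52.3 ± 16.2 (SD, n = 3 each). hTNFtg differed from WT by -1.12 (SE 0.38) on the log2 scale, but the rule was not met without WT replicate 3 (-1.04) or hTNFtg replicate 3 (-0.77). Treated SFs differed from WT by -1.26 (SE 0.28) and from untreated hTNFtg SFs by -0.14 (SE 0.42). As a share of both beta genes, Atp1b1 made up 36.0%, 27.4% and 27.4% in the WT libraries, 12%, 15.1% and 9.14% in untreated hTNFtg and 19.1%, 17.7% and 14.6% in treated libraries. These shares did not overlap between WT and the hTNFtg groups.

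Counts of Atp1b1 and Fxyd3 are uncertain, because a gene on the opposite strand covers the end that this method reads. Nme7, a gene of the nucleoside diphosphate kinase family on the plus strand, overlaps the minus-strand Atp1b1 by 617 bp at their 3′ ends, 575 bp of it exonic. Nme7 was at 138, 107 and 140 in WT, at 75, 77 and 37 in untreated hTNFtg and at 75, 64 and 43 in treated SFs, which is 1.00 to 1.23 times Atp1b1 in each library. Nme7 was also the gene most like Atp1b1 across the 9 libraries, with a Pearson r of 0.995. Lgi4, which encodes a secreted protein of Schwann cell development, overlaps Fxyd3 by 2764 bp, 2059 bp of it exonic. Lgi4 was at 7, 8 and 11 in WT, at 0, 6 and 18 in untreated hTNFtg and at 2, 10 and 24 in treated SFs, from 0.50 to 0.875 times Fxyd3 where Fxyd3 was above 0. Whether strand was used in counting is not given in the sources used here, so reads of the partners in each pair cannot be told apart, and the differences given for Atp1b1 may belong to Nme7.

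**Figure D3:**
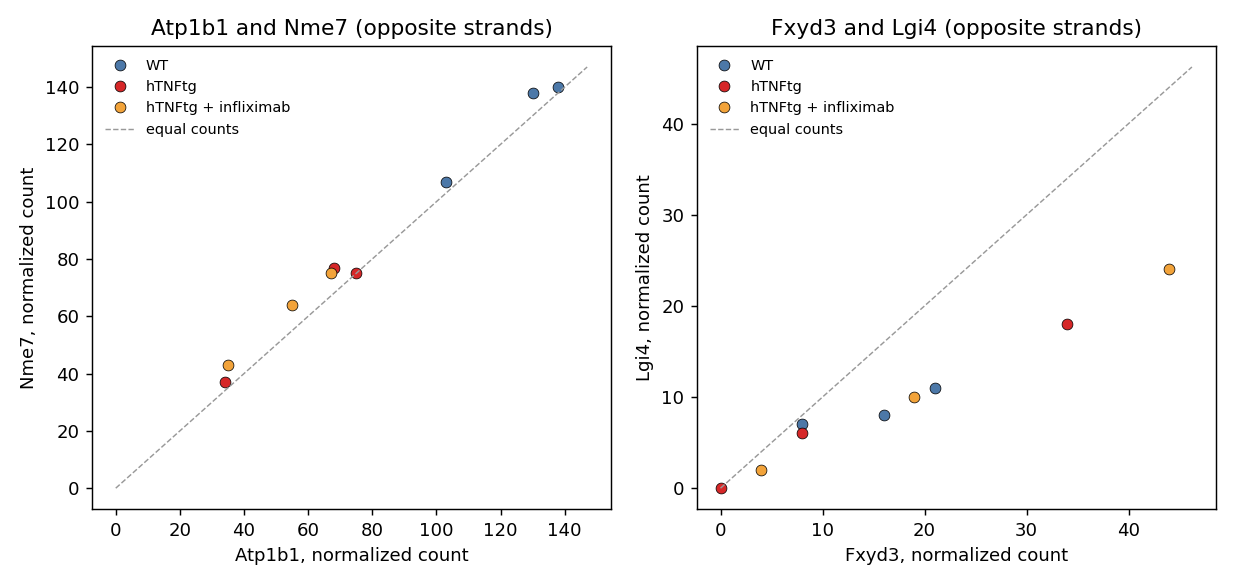
Normalized count of the overlapping gene (y axis) against that of the member gene (x axis) in each of the 9 libraries, Nme7 against Atp1b1 on the left and Lgi4 against Fxyd3 on the right; the dashed line marks equal counts. Nme7 lies on or just above the line in every library, at 1.00 to 1.23 times Atp1b1.

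None of the 8 genes passed the study's rule between infliximab-treated and untreated hTNFtg SFs, where 2.43% of all 28540 genes tested passed, 1.49% as higher and 0.936% as lower. That split of 426 higher and 267 lower genes turned to 481 and 930 without hTNFtg replicate 1, to 735 and 1390 with array quality weights and to 518 and 711 with edgeR. By limma, 2 of the 8 had an unadjusted P under 0.05, 0 of 8 and 0.0% of all genes passed after adjustment, and edgeR on approximate read counts also called 0 of 8. Over all genes, 1026 had an unadjusted P under 0.05 by limma and 165 passed after adjustment by edgeR. Atp1b3 and Fxyd5 did not overlap between treated and untreated libraries, both being lower after infliximab, beside 7.44% of all genes without overlap. Against WT, infliximab-treated SFs differed by the rule in the 5 genes that also passed in untreated SFs, Fxyd2 and Fxyd5 as higher and Fxyd1, Fxyd6 and Atp1b1 as lower, beside 6.81% of the 28243 genes tested, 3.86% as higher and 2.95% as lower. These same 5 genes did not overlap, beside 14.2% of all genes. After adjustment 2 of the 8, Fxyd1 and Fxyd2, and 0.74% of all genes passed 0.05, and leaving out any 1 library left 0 of the 8 and took the count over all genes from 209 to 0 or 1, while edgeR passed 5 of the 8. The 2 comparisons against WT use the same 3 WT libraries and are therefore not independent of each other. The same 3 untreated hTNFtg libraries enter both hTNFtg against WT and treated against untreated hTNFtg, with opposite sign. A change against WT and a return after infliximab are thus not separate observations either.

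**Figure D4:**
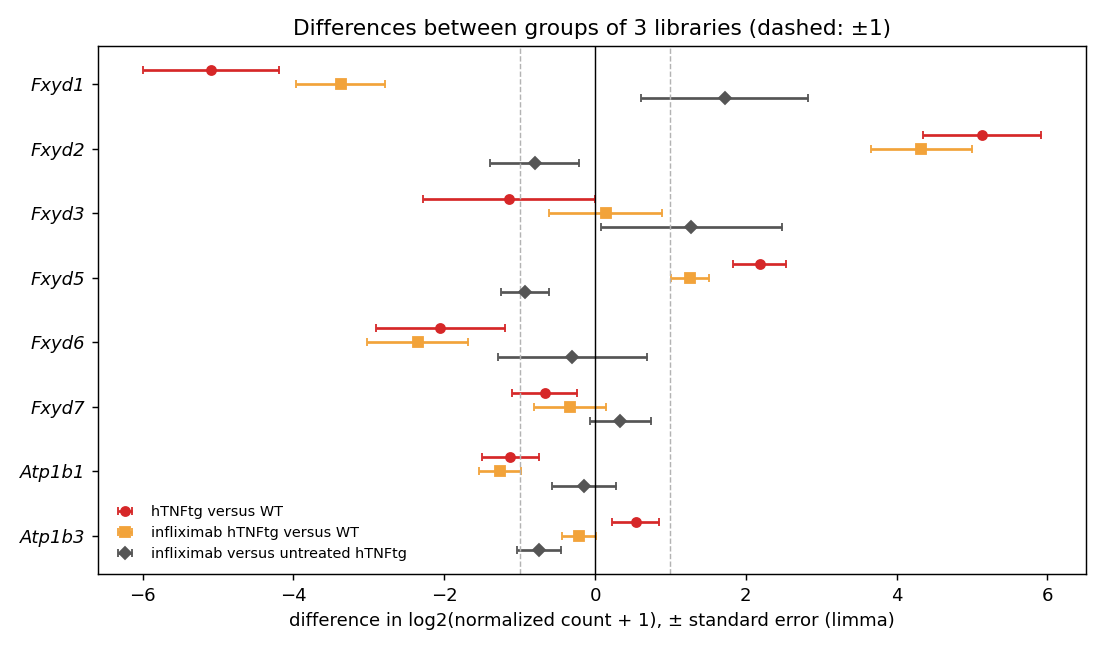
Difference between groups of 3 libraries in log2(normalized count + 1) (x axis) for each of the 8 genes (y axis), with the standard error from limma; dashed lines mark -1 and 1. The size for Fxyd2 against WT depends on the added 1, since WT is at 0; for Fxyd1 and Fxyd2 both comparisons against WT lie beyond -3 or 3, while Fxyd5 lies at 2.18, 1.26 and -0.93.

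The 6 FXYD members lie in 2 clusters, and neighbours that passed the rule within a cluster differed in opposite directions. On chromosome 7, in the coordinates of the deposited tables, Fxyd5 (chr7:31032722-31042481), Fxyd7 (chr7:31042513-31051467), Fxyd1 (chr7:31051678-31057199) and Fxyd3 (chr7:31068172-31076704) all run on the minus strand. Fxyd5 was higher and Fxyd1 lower in hTNFtg SFs, and Fxyd7, between them, was at the limit of detection. On chromosome 9, Fxyd6 (chr9:45370185-45396159) and Fxyd2 (chr9:45399669-45410278) run on the plus strand, with Fxyd6 lower and Fxyd2 higher. The beta subunit genes stand apart, Atp1b1 at chr1:164437109-164458355 and Atp1b3 at chr9:96332655-96364442, both on the minus strand. Among the 2 nearest protein-coding genes on each side of each member, those that passed the rule, other than members themselves, were Nme7, Dpt, Il10ra and Tmprss13. They are named because they passed, so their P values are no independent test. Dpt, which encodes the matrix protein dermatopontin and lies beyond Atp1b1, was at 117, 44 and 87 in WT, 31, 17 and 7 in hTNFtg and 34, 12 and 15 in treated SFs, a log2 difference of -2.22 (SE 0.58, limma adjusted P = 0.174; edgeR adjusted P = 7.94e-05) for hTNFtg against WT. Il10ra, the interleukin-10 receptor chain of leukocytes, lies beyond Fxyd6 and was at 2, 1 and 5 in WT, 12, 12 and 30 in hTNFtg and 21, 10 and 18 in treated SFs, a log2 difference of 2.40 (SE 0.83, limma adjusted P = 0.385; edgeR adjusted P = 0.0232) that no longer passed the rule without hTNFtg replicate 3 (1.98). Nme7 may be no separate observation from Atp1b1, since reads of the overlapping pair cannot be told apart. Nme7 differed by -1.08 (SE 0.37, limma adjusted P = 0.380), and no longer passed without WT replicate 1 (-1.02), WT replicate 3 (-1.01) or hTNFtg replicate 3 (-0.74). The membrane protease gene Tmprss13 passed for treated SFs against WT, by -1.36 (SE 0.59, limma adjusted P = 0.402). It ranged from -1.86 to -0.76 with 1 library left out and passed in 1 of those 6 fits, the one without infliximab replicate 1.

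Promoters are shown for Fxyd5 and Fxyd1, which differed in opposite directions, and for the 2 beta subunit genes, to set their sequences beside their levels. They run from 250 bases before to 50 bases after the RefSeq start (GRCm38.p6), 5′ to 3′ on the gene's strand. The promoter set used here held 6 of the 8 genes, without Fxyd2 and Fxyd7. Capitals mark matches, on either strand, to the kappaB consensus that NF-kappaB proteins bind, the AP-1 motif TGANTCA, the GC box GGGCGG or the TATA box TATAAA; no matches overlap in these windows. They lie at chr7:31042282-31042581 (Fxyd5), chr7:31054804-31055103 (Fxyd1), chr1:164458306-164458605 (Atp1b1) and chr9:96364382-96364681 (Atp1b3), all on the minus strand.
Fxyd5: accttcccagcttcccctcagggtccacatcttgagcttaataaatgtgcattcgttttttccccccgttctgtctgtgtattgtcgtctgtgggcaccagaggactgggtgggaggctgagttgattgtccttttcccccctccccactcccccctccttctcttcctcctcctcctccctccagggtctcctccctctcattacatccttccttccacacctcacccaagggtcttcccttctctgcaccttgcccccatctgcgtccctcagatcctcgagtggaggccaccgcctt
Fxyd1: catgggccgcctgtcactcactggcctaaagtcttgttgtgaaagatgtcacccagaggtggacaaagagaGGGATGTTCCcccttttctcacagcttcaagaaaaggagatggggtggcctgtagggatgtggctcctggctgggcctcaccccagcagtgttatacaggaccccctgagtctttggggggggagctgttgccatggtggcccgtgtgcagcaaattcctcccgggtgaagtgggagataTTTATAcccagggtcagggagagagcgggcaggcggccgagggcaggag
Atp1b1: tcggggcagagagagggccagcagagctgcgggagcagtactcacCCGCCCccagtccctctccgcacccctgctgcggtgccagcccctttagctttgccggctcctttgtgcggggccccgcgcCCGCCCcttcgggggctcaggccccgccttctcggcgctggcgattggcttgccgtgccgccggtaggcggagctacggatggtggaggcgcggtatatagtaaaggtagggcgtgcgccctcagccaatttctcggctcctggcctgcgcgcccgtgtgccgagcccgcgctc
Atp1b3: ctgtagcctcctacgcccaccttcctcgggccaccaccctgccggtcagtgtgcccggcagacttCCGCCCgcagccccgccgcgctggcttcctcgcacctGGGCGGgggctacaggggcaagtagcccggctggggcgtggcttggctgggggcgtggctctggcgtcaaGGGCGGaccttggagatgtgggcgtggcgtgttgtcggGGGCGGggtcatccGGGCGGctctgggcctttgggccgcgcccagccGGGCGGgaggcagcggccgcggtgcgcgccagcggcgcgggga

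The Fxyd5 promoter held none of these motifs, and Fxyd1 held 1 kappaB match, 179 to 170 bases before the start, and 1 TATA box on the opposite strand at bases 1 to 6 after it. The RefSeq starts of Fxyd1, Fxyd3, Fxyd5 and Atp1b3 used here lie inside the genes' intervals in the deposited tables. The whole windows of Fxyd1 and of the second Atp1b3 promoter lie inside, and the other windows of these genes only in part. For Fxyd1 and the second Atp1b3 promoter, the last bases of the window were not found in the GENCODE transcripts searched. Atp1b1 held 2 GC boxes and the first Atp1b3 promoter 6. Fxyd3 held 1 kappaB match, a sequence that matches on both strands, and Fxyd6 held none of the motifs. Over 32851 RefSeq promoters of the same length, 8.46% held a kappaB match, 7.81% an AP-1 motif, 35.7% a GC box and 13.6% a TATA box. CpG dinucleotides numbered 6 in Fxyd1, 6 in Fxyd5, 7 in Fxyd3, 12 in Fxyd6, 31 in Atp1b1 and 34 and 39 in the 2 Atp1b3 promoters, against a median of 7 over all promoters (quartiles 3 and 20). A match is a run of letters and not evidence of a bound factor.

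Other ion pump and sodium transport genes formed a wider list of 35 genes, also chosen with earlier results of these data known. Atp12a, Slc12a2, Nkain3 and Nkain4 are named below because they passed the rule. Their P values therefore describe them and are no independent test. In hTNFtg against WT, 27 of them were tested, 0 passed the rule as higher and 2, Atp12a and Slc12a2, passed as lower, beside 6.39% of all genes passing either way. After infliximab, 2 of 29 tested, Atp12a and Nkain3, passed as higher than in untreated hTNFtg SFs and 0 as lower, beside 2.43% of all genes. Treated SFs against WT gave 1 higher, Nkain4, and 2 lower, Atp12a and Slc12a2, of 27 tested, beside 6.81% of all genes. The median log2 difference of the list was 0.33 in hTNFtg against WT, 0.20 in treated SFs against WT and -0.04 in treated against untreated hTNFtg, beside 0.00 for all genes in each. The first 2 of these medians are values of genes with counts of at most 2 in the libraries compared, so that they rest on genes near 0. The first median was 0.01 without hTNFtg replicate 3 and -0.04 over genes with a mean of at least 10. The second was 0.05 without WT replicate 3. The third was 0.08 without hTNFtg replicate 2 and -0.16 without hTNFtg replicate 3.

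Atp1a4, a pump subunit known from sperm, and Atp1b2, the beta-2 subunit of glia, did not exceed 4 in any library.

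Atp12a encodes the alpha subunit of the non-gastric proton-potassium pump, a relative of the sodium pump that can pair with the beta-1 subunit. It was at 377, 429 and 657 in WT, at 19, 29 and 11 in untreated hTNFtg and at 140, 86 and 25 after infliximab. The treated libraries lay under all WT libraries, and infliximab replicate 3 lay within the untreated range. hTNFtg SFs differed from WT by -4.62 on the log2 scale (SE 0.40, limma adjusted P = 0.000955), lower in 3 of 3 libraries, and the adjusted P ranged from 0.00624 to 0.178 with 1 library left out. Treated SFs differed from WT by -2.80 (SE 0.52, limma adjusted P = 0.0489), an adjusted P that ranged from 0.154 to 0.363 with 1 library left out, and by -2.10 without infliximab replicate 3, the library with hepatocyte transcripts. Atp12a was higher by 1.82 (SE 0.61, limma adjusted P = 0.803; edgeR adjusted P = 0.00202) after infliximab than in untreated SFs. This last difference no longer passed the rule without hTNFtg replicate 1 (1.85), infliximab replicate 1 (1.3) or infliximab replicate 2 (1.65), and was 2.52 without infliximab replicate 3. Mean levels of Atp12a were 488 ± 149, 19.7 ± 9.02 and 83.7 ± 57.5 (SD, n = 3 each).

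Slc12a2, the sodium-potassium-chloride cotransporter, was at 212, 204 and 465 in WT, 137, 122 and 104 in hTNFtg and 102, 125 and 52 in treated SFs. Its log2 difference was -1.17 (SE 0.36, limma adjusted P = 0.277; edgeR adjusted P = 0.0183) for hTNFtg against WT and -1.63 (SE 0.39, limma adjusted P = 0.107; edgeR adjusted P = 9.43e-09) for treated SFs against WT, and the first was -0.79 and outside the rule without WT replicate 3. Nkain3 and Nkain4 encode membrane proteins that bind the pump's beta-1 subunit. Nkain3 was at 27, 21 and 12, at 0, 16 and 16 and at 38, 23 and 28 in the same order, a log2 difference of 2.18 (SE 0.99, limma adjusted P = 0.803) for treated against untreated SFs. It no longer passed the rule without hTNFtg replicate 1 (0.82), whose 0 lies within a limit of 18.7, or without infliximab replicate 1 (2.0), replicate 2 (2.35) or replicate 3 (2.21). Nkain4 was at 3, 0 and 2, at 0, 3 and 9 and at 11, 3 and 12, a log2 difference of 1.90 (SE 0.75, limma adjusted P = 0.345) for treated SFs against WT. It no longer passed the rule without WT replicate 2 (1.3), WT replicate 3 (2.10), infliximab replicate 1 (1.66) or infliximab replicate 3 (1.6). Sgk1, a kinase that raises sodium transport, was chosen after its values were seen. It was at 191, 185 and 187 in WT, 361, 334 and 395 in hTNFtg and 275, 242 and 326 in treated SFs, 3 ranges without overlap in the order of Fxyd5, and its log2 difference of 0.95 (SE 0.27, limma adjusted P = 0.218) for hTNFtg against WT fell short of the rule, which it passed without hTNFtg replicate 2 (1.00).

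**Figure D5:**
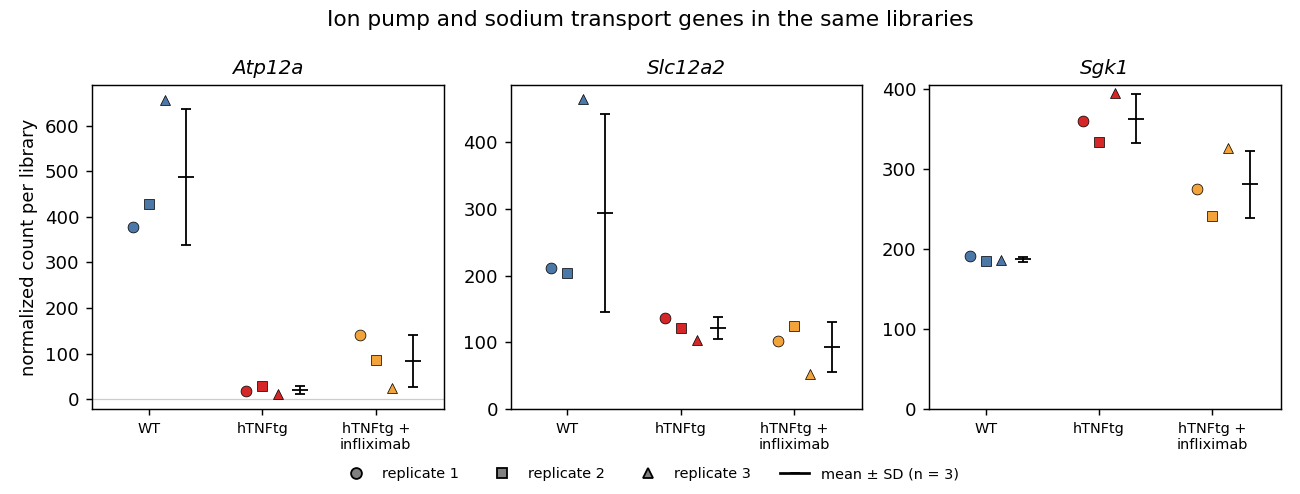
Normalized counts (y axis, linear, from 0, separate scale for each gene) of Atp12a, Slc12a2 and Sgk1 in the 3 WT, 3 untreated hTNFtg and 3 infliximab-treated hTNFtg libraries (x axis); symbols mark the replicate and the bar beside them is mean ± SD. Atp12a lies at 377 or more in WT and at 140 or less in the other libraries.

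The genes whose levels across the 9 libraries were most like those of a member were ranked by Pearson r of log2(normalized count + 1), a description over libraries that share their groups. For Fxyd1 they were Smarca1 (0.966), a chromatin remodeler, Mgp (0.962), an inhibitor of calcification made by cartilage and vessel cells, and Magi3 (0.961), a scaffold protein. For Fxyd5 they were Neurl3 (0.990), a ubiquitin ligase, Ccl20 (0.980), a chemokine, and Itgam (0.980), an integrin chain of myeloid cells. For Fxyd2 they were Sirpb1c (0.980), a receptor of myeloid cells, Triobp (0.974), an actin-binding protein, and Gsdmd (0.972), the pore-forming gasdermin D. Fxyd6 had lower values, among them Siah1a (0.927), a ubiquitin ligase, and Gm43173 (0.925). After Nme7, Atp1b1 was closest to Egfl6 (0.989), a secreted matrix protein, and Pdzd4 (0.983).

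Of the marker lists, 5 of 7 macrophage genes were higher in hTNFtg than WT SFs, as Fxyd5 and Fxyd2 were, and 4 of 6 chondrocyte genes were lower, as Fxyd1 and Atp12a were. Between treated and untreated hTNFtg SFs, 2 of the 6 chondrocyte genes, Sox9 and Comp, passed as higher, as Atp12a did, and 0 of the 7 macrophage genes passed. Comp, a cartilage matrix protein, was at 5353, 4373 and 7288 in WT, at 299, 848 and 550 in untreated hTNFtg and at 1933, 1355 and 573 in treated SFs, whereas Col2a1, the main cartilage collagen, overlapped between the groups at 60, 51 and 94, at 75, 88 and 37 and at 55, 133 and 49. Lyz2, lysozyme of macrophages, was at 43, 277 and 95 in WT, at 5356, 2284 and 2356 in untreated hTNFtg and at 2388, 1277 and 2672 in treated SFs. Ptprc, which encodes the CD45 used for depletion, was at 0, 3 and 0, at 31, 9 and 12 and at 28, 8 and 22 in the same order. Lyz2 and Ptprc both overlapped between treated and untreated hTNFtg libraries, and Fcgr1, a macrophage Fc receptor, overlapped between WT and hTNFtg at 0, 5 and 9 against 6, 1 and 4. The part of macrophages and of chondrocyte-like cells in the levels of these genes was not tested.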

How the data were processed

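RNA of 9 SF cultures was sequenced from transcript 3′ ends with QuantSeq on an Ion Proton, aligned by the authors to mm10 with TopHat2 and Bowtie2, counted per gene with GenomicRanges and normalized within metaseqR; tool versions are not given in the sources used here. The values the authors deposited are DESeq-normalized counts rounded to whole numbers, recorded here as a score in 8 libraries and as a signal in hTNFtg replicate 1, where 1 read is worth 6.23 and the steps stay visible after rounding; all libraries entered the fit alike. The untreated hTNFtg values differed between the 2 tables in 0 genes. Another 24 columns of per-sample values, and the columns of the authors' own comparisons (P values, FDR and fold changes), were not used.

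Differences were tested with limma 3.58.1 (R 4.3.3) on log2(normalized count + 1) of the 6 libraries compared, with a trended prior, over genes above 0 in at least 1 library, and Benjamini-Hochberg adjustment over all of them. The design assumed normalized values and was kept; edgeR 4.0.16 ran on reads approximated from the step of each library as an alternative, with other pseudocounts, filters, scalings, weights, a replicate block and each library left out. The fit was tested on simulated data. Same-numbered replicates were not taken as pairs, since the labels give no shared origin. Replicates may share technical sources that the labels do not name.

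The members and lists were chosen with earlier results of these data known. Named genes were the 8 members, the alpha subunits, Atp1b2 and Fxyd4, other genes of the wider list and the 2 nearest protein-coding neighbours on each side that passed the rule, and, for members with a mean of at least 10 that passed in hTNFtg against WT, the 3 genes of highest Pearson r; some genes that this rule names are not reported here. The tables list mouse genes, and the human transgene was not analysed here. Promoters came from RefSeq (GRCm38.p6); overlaps used gene positions of the deposited tables and exons of GENCODE.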

Additional observations from a re-analysis of the deposited data

How the results depend on the processing

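Every value given for the 8 genes that passed the rule kept its direction under all alternatives. In hTNFtg against WT, 5 of the 8 passed the rule under most settings, 3 passed with array quality weights, 4 with a replicate block, where Fxyd6 was lost, and 3 to 5 with 1 library left out. The 3 left without WT replicate 3 or without hTNFtg replicate 3 were Fxyd1, Fxyd2 and Fxyd5. For infliximab against untreated hTNFtg SFs the count was 0, but 1 (Fxyd1) with array quality weights and 0 to 2 with 1 library left out. For treated SFs against WT it was 5 under each alternative run. After adjustment, treated SFs against WT gave 2 of the 8, and 5 with edgeR or robust eBayes, 4 under a mean of at least 10, and 1 under a pseudocount of 5 or with all 9 libraries in one fit. With the replicate number as a block, 0 of the 8 passed after adjustment in each comparison; correlations of same-numbered libraries were 0.292, -0.14 and 0.353 between hTNFtg and WT, 0.07, 0.197 and 0.265 between treated and untreated hTNFtg, and 0.102, -0.147 and 0.013 between treated SFs and WT. In the wider list, the count for hTNFtg against WT was 2, with 5 under array quality weights and 1 to 4 with 1 library left out, 1 without WT replicate 3 and 4 without hTNFtg replicate 1. For infliximab against untreated hTNFtg it was 2, with 1 under a pseudocount of 5, under a mean of at least 10, under quantile normalization and with the replicate block, and 0 to 3 with 1 library left out. For treated SFs against WT it was 3, and 2 to 5 with 1 library left out. The cause was not tested. Over all genes in hTNFtg against WT, 137 passed after adjustment, 922 with edgeR, 1004 with array quality weights and 0 with the replicate block. The split of genes past the rule in that comparison, 956 higher and 867 lower, was 1510 and 845 without hTNFtg replicate 1, 2218 and 1322 with array quality weights and 1534 and 919 with edgeR. The shallow hTNFtg replicate 1 limits values under 18.7.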
